A study of Mus musculus with 6 samples.

Results

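The data cover 10 mouse genes whose products remove methylglyoxal and other reactive carbonyls: Glo1, Hagh, Park7, Akr1b3, Akr1b8, Akr1a1, Aldh2, Aldh9a1, Esd and Adh5. They were taken by symbol from the 24346 genes listed for each library, and all 10 were found. The question was whether their RNA levels differ between parental CT26.mMR1 cells and M8. CT26 is a mouse colorectal tumor line. The parental cells (CT26_cl9 in the sample labels) overexpress mouse MR1 after retroviral transduction, and M8 (CT26_cl9_M8) is 1 clone obtained from them by mutagenesis with N-ethyl-N-nitrosourea (ENU), so that both groups carry the MR1 transgene. M8 had been selected by its activity toward a MAIT reporter cell and its surface MR1. Each group had 3 libraries. A difference between the groups cannot be told apart from a difference between this clone and any other clone of the same line.

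Methylglyoxal is a by-product of glycolysis, formed mainly from triose phosphates. Glyoxalase I acts on the adduct of methylglyoxal with glutathione, and glyoxalase II then releases D-lactate and returns the glutathione. Aldo-keto reductases and aldehyde dehydrogenases reduce or oxidise aldehydes directly. MR1 is a class I-like molecule that presents small metabolites to MAIT cells. Its strongest known ligands form when a riboflavin precursor of microbes condenses with methylglyoxal or glyoxal, which is why genes that clear carbonyls are of interest in cells that display MR1.

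The deposited values were FPKM, fragment numbers scaled by transcript length and by the number of mapped fragments. Steps in the low values put the libraries at an estimated 23800000 to 26900000 reads in parental cells and 19400000 to 22000000 reads in M8, so every M8 library was less deep than every parental one. Between replicates, the FPKM of a gene varied by a median of 5.62% of its mean (coefficient of variation) in the parental group and 4.42% in the M8 group. The labels give the tissue as colon. Of 8 epithelial markers, 4 (Epcam, Cdh1, Krt19 and Cdx2) were listed at 0 in all 6 libraries and another 2 stayed at 0.117 FPKM or lower. Krt18 (24.5 to 38.4 FPKM) and Krt20 (10.8 to 19.8 FPKM) were the epithelial markers with values above that. The mesenchymal markers Vim (1751 to 2137 FPKM) and Col1a2 (456 to 505 FPKM) were high in both groups. Of the 7 mesenchymal markers Thy1 was listed at 0 in all 6 libraries and Pdgfra had 2.09 to 3.63 FPKM, so the sum of that list is mostly Vim. All 7 leukocyte markers were at 0.539 FPKM or lower. The epithelial list summed to 39.7 to 56.4 FPKM in parental cells and 47.5 to 49.3 in M8, the mesenchymal list to 2431 to 2837 and 2639 to 2739, and the leukocyte list to 0.213 to 0.604 and 0.144 to 0.587. Single markers did change while these sums overlapped. In M8, Krt20 (log2 fold change -0.50, limma adjusted p = 0.00438) and Pdgfra (-0.44, limma adjusted p = 0.00903) were lower and Pdgfrb (0.25, limma adjusted p = 0.00787) was higher, and their part in the other results was not tested.

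Before the levels, the transcripts themselves set how each value can be read. The libraries were sequenced as single reads, and each gene's representative transcript was cut into overlapping windows as long as a read. In 5 of the 10 genes (Hagh, Park7, Akr1a1, Aldh9a1 and Adh5) no window came within 2 mismatches of another annotated gene. Aldh2 shared 0.8% of its 3767 windows, with Gm42879 on the opposite strand. Akr1b8 shared 5.3% of 1258 windows at up to 2 mismatches, Esd 23.7% of 1888 and Glo1 57.2% of 795. Glo1 shared its windows with the processed pseudogene Gm13443, and Esd with 9 other genes, among them the processed pseudogene Esd-ps. Neither Gm13443 nor those that shared most with Esd (Gm5456, Esd-ps, Gm17045 and Gm17121) are among the genes analysed here. Akr1b3, which encodes aldose reductase, shared 73.7% of its 1287 windows exactly and 97.5% at up to 2 mismatches with 5 other annotated genes, leaving 32 windows of its own. One of these genes is Gm6644, a processed pseudogene on chromosome 1 (GRCm38 chr1:55443695-55445063, minus strand), while Akr1b3 itself lies at chr6:34303930-34317489 on the minus strand. The stretch below, coding bases 679 to 779 of Akr1b3 in the GENCODE transcripts, shows why a read from it has no single origin. With either strand compared, it is identical in Akr1b3, Gm6644, Gm6736, Gm12138 and Gm38056, and in Gm5400 it differs at the 2 bases in capitals. Gm38056 overlaps Gm6644 on the opposite strand, with 951 shared exon bases, so these 2 are not separate copies.
Akr1b3 and Gm6644: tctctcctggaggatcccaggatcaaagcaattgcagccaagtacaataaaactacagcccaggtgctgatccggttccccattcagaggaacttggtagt
Gm5400: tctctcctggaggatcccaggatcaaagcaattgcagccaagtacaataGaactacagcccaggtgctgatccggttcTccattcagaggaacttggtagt

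A smaller stretch is nearly shared between neighbours on chromosome 6. Akr1b8 (chr6:34354146-34368461, plus strand) lies beside Akr1b10 (chr6:34384247-34396949, plus strand) and Akr1b7 (chr6:34412362-34423137, plus strand). Coding bases 428 to 528 of Akr1b8 differ at 2 bases, in capitals, from a transcript of Akr1b10 annotated as retaining an intron, so most reads of the pair can be assigned by sequence but those from here only by these bases.
Akr1b8: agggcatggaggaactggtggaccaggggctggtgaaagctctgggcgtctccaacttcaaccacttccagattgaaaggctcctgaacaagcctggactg
Akr1b10: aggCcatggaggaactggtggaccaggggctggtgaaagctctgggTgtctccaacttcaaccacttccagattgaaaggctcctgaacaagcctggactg

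The 10 genes spanned a wide range of levels. Their order by mean FPKM, which is scaled by length, was Akr1a1, Park7, Aldh2, Esd, Glo1, Adh5, Akr1b8, Hagh, Aldh9a1 and Akr1b3. Scaling by length does not settle where shared reads were counted. The places of Akr1b3 (97.5% of windows shared at up to 2 mismatches), Glo1 (57.2%) and Esd (23.7%) are therefore less certain. Akr1b3 and Gm6644 together averaged 171 FPKM. The first 6 stood above the 90th percentile of level among the 10597 genes tested, from percentile 97.6 for Akr1a1 to 91.5 for Adh5, and Akr1b3 stood at percentile 17.3. In parental cells 2 pairs of neighbours in this order overlapped, Park7 with Aldh2 and Aldh2 with Esd. In M8 none overlapped, but Hagh and Aldh9a1 had changed places, with all 3 Hagh values below all 3 Aldh9a1 values. Summed over the 10 genes, the level was 1374, 1424 and 1443 FPKM in the parental libraries and 1452, 1477 and 1418 FPKM in M8. The groups overlapped in this sum, which the genes with the highest levels dominate.

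**Figure D1:**
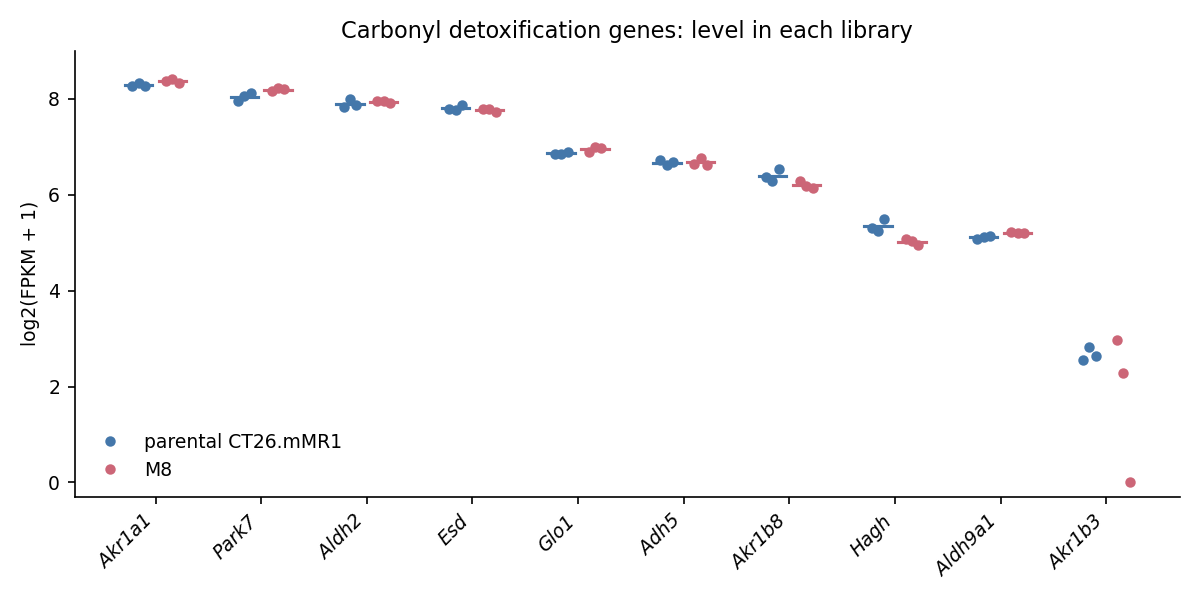
Level of each gene in each library, as log2(FPKM + 1), ordered by mean level, with blue points for the 3 parental and red points for the 3 M8 libraries; horizontal bars are group means, omitted for Akr1b3 because it has a value of 0. Hagh, Akr1b8, Park7 and Aldh9a1 have groups that do not overlap, and Akr1b3 falls to 0 in M8 replicate 3.

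Between the lines, 4 of the 10 genes passed the test (limma on log2(FPKM + 1), Benjamini-Hochberg adjusted p below 0.1): Park7 and Aldh9a1 were higher in M8, and Hagh and Akr1b8 were lower. Of the 10597 genes tested, 37.7% passed, 21.2% as higher and 16.5% as lower, so the members' 40.0% was close to the background. The groups did not overlap for the same 4 genes, against 45.2% of all genes tested, 24.8% with M8 higher and 20.4% with M8 lower. The members' median log2 fold change was 0.03, and 0.05 over the 9 without Akr1b3, beside 0.01 over all genes tested. The largest change among those that passed was the fall of Hagh to a ratio of 0.79, and the rise of Aldh9a1, to a ratio of 1.07, was the smallest. These are bulk libraries, in which fewer cells with a transcript and less of it per cell cannot be told apart.

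**Figure D2:**
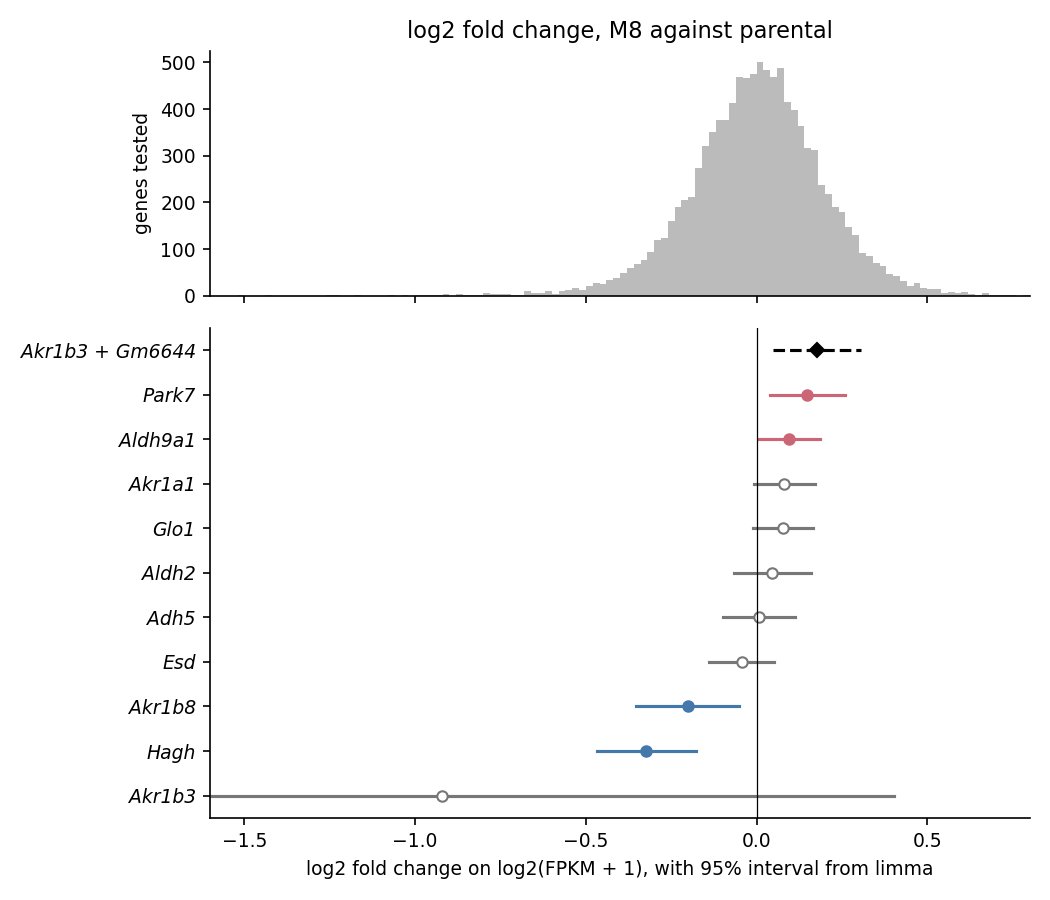
Upper panel, histogram of the log2 fold change (M8 against parental, on log2(FPKM + 1)) for the genes tested; lower panel, the 10 genes with their 95% intervals from limma, filled red or blue where higher or lower at an adjusted p below 0.1 and open otherwise, and the sum of Akr1b3 and Gm6644 as a black diamond. Intervals of most genes lie within the central part of the histogram, Hagh sits at -0.32, and the lower end of the Akr1b3 interval (-2.25) runs off the axis.

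The glyoxalases showed different changes. Glo1, glyoxalase I (chr17:30592861-30612659, minus strand), had 115, 115 and 118 FPKM in the parental libraries and 118, 126 and 124 FPKM in M8. The lowest M8 library met the highest parental one, and the difference did not pass (log2 fold change 0.08 ± 0.04 SE, 95% interval -0.01 to 0.17, limma adjusted p = 0.173). Hagh, glyoxalase II (chr17:24839781-24864450, plus strand), had 38.4, 37.1 and 43.8 FPKM in parental cells and 32.6, 32.0 and 30.0 FPKM in M8. All 3 M8 libraries were below all 3 parental ones, with means of 39.7 ± 3.55 and 31.5 ± 1.37 FPKM (SD, n = 3). Hagh was lower in M8 by a log2 fold change of -0.32 ± 0.06 SE (95% interval -0.47 to -0.18, limma adjusted p = 0.00629). An estimated 616 to 1168 reads per library stood behind these values. It passed under each of the 17 alternative settings, with log2 fold changes from -0.41 to -0.25, which no other member did. The ratio of Glo1 to Hagh FPKM was 3.01, 3.10 and 2.70 in the parental libraries and 3.63, 3.93 and 4.14 in M8, a description of the same values and not a further test. RNA levels of the 2 enzymes were measured here, and their activities were not.

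Park7 encodes DJ-1, a protein with a protective role in oxidative stress that has been described as a deglycase for methylglyoxal-modified proteins. Park7 (chr4:150897133-150909921, minus strand) had 246, 265 and 277 FPKM in parental cells and 284, 297 and 293 FPKM in M8. All 3 M8 libraries were above all 3 parental ones, with means of 263 ± 15.6 and 291 ± 6.71 FPKM (SD, n = 3). The log2 fold change was 0.15 ± 0.05 SE (95% interval 0.04 to 0.26, limma adjusted p = 0.0470). The call was lost under quantile normalization (0.03, limma adjusted p = 0.585) and upper-quartile scaling (0.06, limma adjusted p = 0.268), and without M8 replicate 2 (limma adjusted p = 0.146) or M8 replicate 3 (limma adjusted p = 0.115).

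Among the aldo-keto reductases, Akr1a1, aldehyde reductase, was the highest of all members and Akr1b8 fell. Akr1a1 (chr4:116636510-116651674, minus strand) had 305, 321 and 307 FPKM in parental cells and 331, 337 and 319 FPKM in M8. One M8 library lay within the parental range, and the difference did not pass (log2 fold change 0.08 ± 0.04 SE, 95% interval -0.01 to 0.17, limma adjusted p = 0.155). Akr1b8, an aldose reductase-related enzyme that reduces aldehydes, had 81.3, 77.2 and 92.1 FPKM in parental cells and 76.8, 71.2 and 69.1 FPKM in M8. The groups did not overlap, although the highest M8 library and the lowest parental one were close. Akr1b8 was lower in M8 by a log2 fold change of -0.20 ± 0.07 SE (95% interval -0.35 to -0.05, limma adjusted p = 0.0493). This call was lost with no filter on low values (log2 fold change -0.20, limma adjusted p = 0.121) and without parental replicate 3 (-0.13, limma adjusted p = 0.115). It was also lost without M8 replicate 2 (-0.19, limma adjusted p = 0.127) and without M8 replicate 3 (-0.17, limma adjusted p = 0.145).

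Akr1b10 and Akr1b7, which lie on one side of Akr1b8, were lower as well, while Akr1b3 on its other side was not called. Akr1b10 had 16.9, 15.9 and 19.3 FPKM in parental cells and 13.9, 14.5 and 13.7 FPKM in M8, a log2 fold change of -0.29 ± 0.07 SE (limma adjusted p = 0.0139). Akr1b7, a reductase of isocaproaldehyde and lipid-derived aldehydes, had 13.7, 11.6 and 14.0 FPKM in parental cells and 9.46, 7.87 and 8.76 FPKM in M8, a log2 fold change of -0.54 ± 0.08 SE (limma adjusted p = 0.00226). The groups of both genes were apart. Akr1b8 per Akr1b7 was 6.39 ± 0.413 in parental cells and 8.35 ± 0.618 in M8 (SD, n = 3), and these ratios did not overlap either.

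Akr1b3 had the widest spread of the 10 genes. It was listed at 4.86, 6.11 and 5.26 FPKM in the parental libraries and at 6.83, 3.90 and 0 FPKM in M8. The M8 values enclosed the parental ones, and the difference did not pass (log2 fold change -0.92 ± 0.59 SE, limma adjusted p = 0.271). The size of the fitted change depended on the pseudocount, reaching -1.97 with a pseudocount of 0.1, and on single M8 libraries, being -0.05 without M8 replicate 3 (limma adjusted p = 0.876) and -1.53 without M8 replicate 1 (limma adjusted p = 0.0807, past the threshold). Its copy Gm6644, chosen for description after its values were seen, was listed far above it at 142, 155 and 169 FPKM in parental cells and 172, 180 and 181 FPKM in M8. Akr1b3 thus made up 3.30%, 3.79% and 3.02% of the pair in parental cells and 3.81%, 2.12% and 0.00% in M8. A value of 0 in 1 library with at least 3 FPKM in the other 5 occurred for 3 of the 24346 genes, the others being the small nucleolar RNA genes Snord15b and Snord22. With 97.5% of the windows shared, the values of Akr1b3 and Gm6644 cannot be told apart from a different division of the same reads, and the level of aldose reductase RNA by itself is not settled by these files.

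The sum of the pair does not depend on how reads were divided between these 2 genes, apart from their lengths. It was 147, 161 and 174 FPKM in parental cells and 179, 184 and 181 FPKM in M8, with all M8 libraries above all parental ones. The sum was higher in M8 by a log2 fold change of 0.18 ± 0.06 SE (95% interval 0.05 to 0.30, limma adjusted p = 0.0471, an alternative added after the values were seen). The sum did not pass under quantile normalization (0.07, limma adjusted p = 0.301) or upper-quartile scaling (0.09, limma adjusted p = 0.186). Nor did it pass without M8 replicate 1 (0.185, limma adjusted p = 0.102), 2 (0.167, limma adjusted p = 0.128) or 3 (0.177, limma adjusted p = 0.103). Without parental replicate 1 the change was smaller but passed (0.114, limma adjusted p = 0.088). Since Gm6644 makes up nearly all of the sum, the reported change of 0.18 is close to that of Gm6644 alone (0.20 ± 0.06 SE, limma adjusted p = 0.0355) and gives no direction for Akr1b3.

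**Figure D3:**
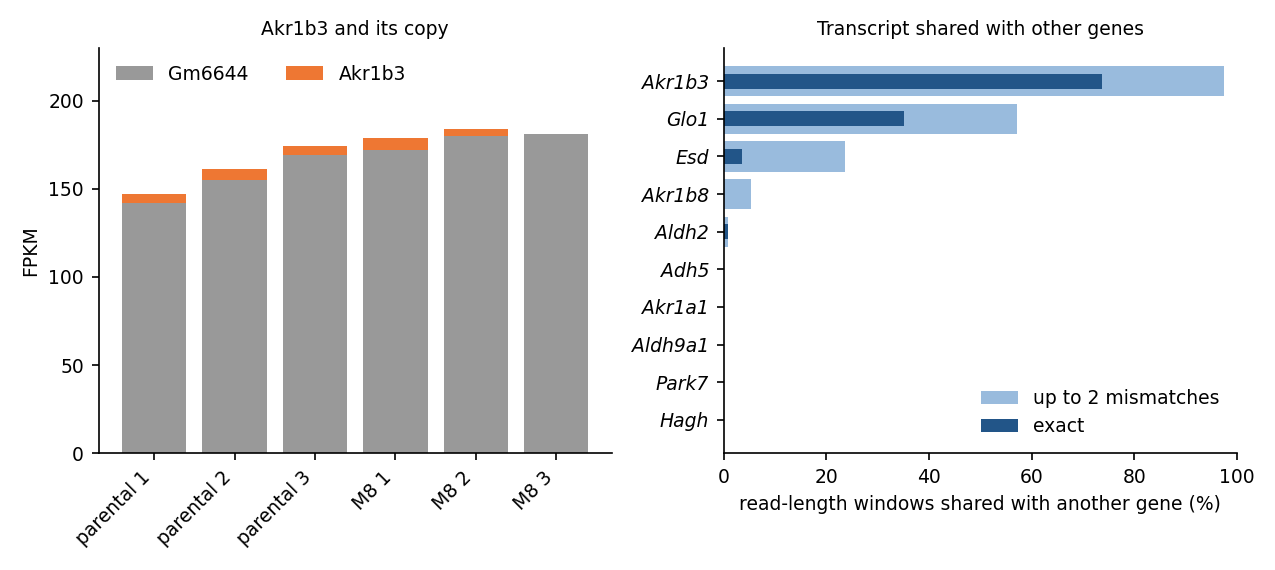
Left, FPKM of Gm6644 (grey) and Akr1b3 (orange) stacked for each library; right, percentage of read-length windows of each gene's transcript shared with another annotated gene, exactly (dark) and at up to 2 mismatches (light). Gm6644 makes up nearly all of the pair in every library, and Akr1b3 has the highest shared percentage of the 10 genes.

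The aldehyde dehydrogenases among the members changed little. Aldh2, the mitochondrial enzyme that oxidises acetaldehyde (chr5:121566027-121593824, minus strand), had 225, 255 and 232 FPKM in parental cells and 247, 247 and 240 FPKM in M8. The M8 values fell inside the parental range (log2 fold change 0.05 ± 0.05 SE, 95% interval -0.07 to 0.16, limma adjusted p = 0.516). Aldh9a1, which oxidises aminoaldehydes (chr1:167349963-167368530, plus strand), had 32.8, 33.7 and 34.0 FPKM in parental cells and 36.1, 35.8 and 35.6 FPKM in M8. The replicates were close to each other and the groups apart, with means of 33.5 ± 0.626 and 35.9 ± 0.215 FPKM (SD, n = 3). Aldh9a1 was higher by a log2 fold change of 0.10 ± 0.04 SE (95% interval 0.01 to 0.19, limma adjusted p = 0.0984). It sat at the threshold, passing in 4 of the 17 alternatives and in none of the 6 fits that left out 1 library (limma adjusted p = 0.106 to 0.22).

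Formaldehyde is cleared by a pair of enzymes that act in turn on its glutathione adduct. Adh5, which oxidises S-hydroxymethylglutathione (chr3:138437200-138455499, plus strand), had 104, 96.6 and 102 FPKM in parental cells and 99.2, 107 and 97.9 FPKM in M8. The groups overlapped (log2 fold change 0.01 ± 0.05 SE, 95% interval -0.10 to 0.11, limma adjusted p = 0.928). Esd, which hydrolyses the resulting S-formylglutathione (chr14:74732151-74750765, plus strand), had 221, 217 and 232 FPKM in parental cells and 220, 220 and 209 FPKM in M8. It did not pass (log2 fold change -0.04 ± 0.04 SE, 95% interval -0.14 to 0.05, limma adjusted p = 0.455), but did as lower under quantile normalization (-0.14, limma adjusted p = 0.0173) and upper-quartile scaling (-0.13, limma adjusted p = 0.0283). For 5 of the 6 members that did not pass, the 95% interval kept the change within 0.17 of 0 on the log2 scale, and Akr1b3 was the exception.

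**Figure D4:**
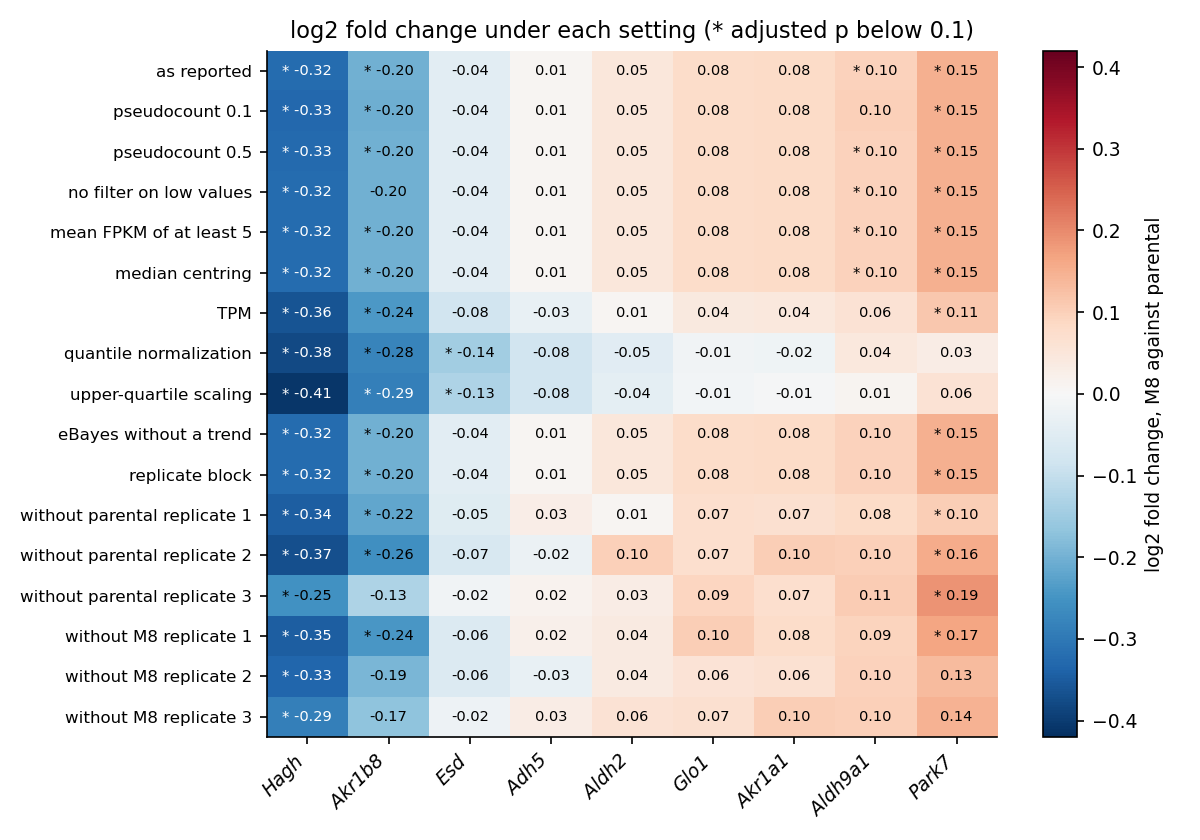
Heat map of the log2 fold change (M8 against parental) of 9 genes, without Akr1b3, under the reported fit and the alternatives that change the values, with red for higher and blue for lower in M8 and an asterisk where the limma adjusted p is below 0.1. Hagh has an asterisk in every line, Park7 and Akr1b8 in most, and Adh5, Aldh2, Glo1 and Akr1a1 in none.

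Promoters were examined for the core of the antioxidant response element, which NRF2 binds at many detoxification genes. The motif was TGACNNNGC, searched on both strands from 250 bases before to 50 after each start site in the RefSeq promoter table of GRCm38.p6. Of the 8 members with a window, 2 held a match, beside 14.0% of 27025 genes and 12.4% of 32851 windows. Akr1b3 and Aldh2 were not in the table. The matches belonged to Hagh, which fell, and to Aldh9a1, which rose, so they are printed with the motif in capitals. Hagh had 2 windows, both of start sites inside the gene. The one printed (chr17:24850417-24850716, plus strand) has the motif 20 bases after the start, and the other (chr17:24850240-24850539, plus strand) has no match. The Aldh9a1 window (chr1:167349741-167350040, plus strand) has it 87 bases before the start. A match describes these letters and is not a bound site.
Hagh: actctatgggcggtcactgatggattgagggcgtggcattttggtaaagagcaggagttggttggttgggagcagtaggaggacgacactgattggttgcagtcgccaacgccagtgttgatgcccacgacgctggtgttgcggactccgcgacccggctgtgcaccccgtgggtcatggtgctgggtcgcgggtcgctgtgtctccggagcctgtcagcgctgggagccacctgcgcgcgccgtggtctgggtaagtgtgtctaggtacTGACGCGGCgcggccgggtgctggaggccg
Aldh9a1: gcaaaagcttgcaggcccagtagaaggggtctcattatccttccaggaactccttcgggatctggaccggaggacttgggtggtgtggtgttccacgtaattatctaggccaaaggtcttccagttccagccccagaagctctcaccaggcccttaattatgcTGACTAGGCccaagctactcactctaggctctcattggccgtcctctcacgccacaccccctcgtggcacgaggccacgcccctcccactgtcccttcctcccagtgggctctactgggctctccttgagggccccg

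Glutathione is the cofactor of glyoxalase I and of the formaldehyde pathway, and its supply genes included several that rose. Of 6 genes, 4 were higher in M8 and none was lower, beside 21.2% and 16.5% of all genes tested, and the median log2 fold change was 0.23, beside 0.01. The list was chosen with earlier results of these data known, so this comparison is a description and not a test. The count of higher genes stayed within 1.5 times under every alternative, but 1 gene was called lower with a mean of at least 5 FPKM, median centring, TPM, quantile normalization or without parental replicate 2, and 2 with upper-quartile scaling. Slc3a2, the heavy chain of the cystine and amino acid transporters, had 163, 161 and 168 FPKM in parental cells and 219, 217 and 215 FPKM in M8 (log2 fold change 0.40, limma adjusted p = 0.000206). Slc7a11, the cystine transporter, rose from 2.49 to 3.34 FPKM (0.32, limma adjusted p = 0.0407). Gsr, glutathione reductase, rose from 17.4 to 20.7 FPKM (0.24, limma adjusted p = 0.00498). Gclm, the regulatory subunit of the enzyme of the first step of synthesis, also passed, rising from 21.3 to 25.1 FPKM (0.22, limma adjusted p = 0.00591). Its catalytic partner Gclc had 26.7, 25.2 and 27.2 FPKM in parental cells and 24.8, 23.5 and 24.5 FPKM in M8, with the groups apart, and just missed the threshold (-0.11, limma adjusted p = 0.101). The synthetase Gss (20.3 and 19.0 FPKM) did not pass (limma adjusted p = 0.256).

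Other enzymes of the same chemistry changed in both directions, and the counts in these lists stand beside the same 21.2% higher and 16.5% lower among all genes tested. Of 18 other aldehyde dehydrogenases, 8 had a mean of at least 1 FPKM, of which 2 were higher and 3 lower. The count lower fell to 1 without M8 replicate 2, and the count higher to 1 with a mean of at least 5 FPKM. Aldh3a1, which oxidises lipid-derived and aromatic aldehydes, had 14.0, 15.9 and 11.1 FPKM in parental cells and 7.09, 7.65 and 7.66 FPKM in M8 (log2 fold change -0.78, limma adjusted p = 0.00121). Aldh1a1, a retinal dehydrogenase, rose from 1.57 to 2.69 FPKM (0.52, limma adjusted p = 0.00761), and Aldh16a1 from 12.8 to 17.2 FPKM (0.40, limma adjusted p = 0.00227). Among 20 other aldo-keto, carbonyl and alkenal reductases, 10 were tested, with 1 higher (Akr1c13, 0.34, limma adjusted p = 0.0876) and 2 lower (Akr1b7 and Akr1b10). No gene of this list was called higher with a mean of at least 5 FPKM, TPM, upper-quartile scaling, no trend in eBayes, or without parental replicate 1 or 2 or M8 replicate 1. Of 10 alcohol dehydrogenases and aldehyde oxidases, 2 were tested, with 1 higher and 1 lower. With no filter on low values the count higher was 2. Adh7, a retinol and ethanol dehydrogenase, rose from 48.7 to 59.8 FPKM (0.29, limma adjusted p = 0.00246) and Aox1, aldehyde oxidase, fell from 9.68 to 7.74 FPKM (-0.29, limma adjusted p = 0.0094).

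Relatives of the glyoxalases and deglycases, with fructosamine kinases, gave 1 lower gene of 10 tested, Gatd1 (16.2 to 13.9 FPKM, log2 fold change -0.21, limma adjusted p = 0.0944), whose groups overlapped. The count lower in this list was 3 with TPM, 4 with upper-quartile scaling and 2 with no trend in eBayes or without parental replicate 1 or M8 replicate 2, and 0 under quantile normalization, at a threshold of 0.05 or without parental replicate 2, parental replicate 3, M8 replicate 1 or M8 replicate 3. The count higher, 0 as reported, was 1 under quantile normalization. Haghl, the relative closest in sequence to Hagh, had 7.78 FPKM in parental cells and 8.19 in M8 (0.07, limma adjusted p = 0.379). Among enzymes at triose phosphate and aminoacetone, from which methylglyoxal can arise, 5 of 9 genes were tested. Gcat, which acts on the precursor of aminoacetone, had 19.4, 19.7 and 15.5 FPKM in parental cells and 29.4, 26.7 and 27.8 FPKM in M8 (0.60, limma adjusted p = 0.00132). Whether this change raises or lowers methylglyoxal was not tested. Aoc2, an amine oxidase, was lower (1.45 to 0.805 FPKM, -0.43, limma adjusted p = 0.0741), a call lost in 9 of the 17 alternatives, including those without parental replicate 1 or 3 or M8 replicate 1 or 2. Without parental replicate 2, 3 genes of this list were called higher. Tpi1, triose phosphate isomerase, had 579, 857 and 747 FPKM in parental cells and 791, 823 and 834 FPKM in M8, and did not pass (0.18, limma adjusted p = 0.260), with parental replicate 1 the lowest of the 6 libraries. Mr1 itself had 1139, 1057 and 1046 FPKM in parental cells and 1095, 1035 and 1034 FPKM in M8, and the groups overlapped. B2m, its light chain, had 1949, 1968 and 1954 FPKM in parental cells and 1878, 1850 and 1923 FPKM in M8, with the groups apart. Neither passed (log2 fold changes -0.04 and -0.06, limma adjusted p = 0.615 and 0.316), but 1 of the 2 was called lower with TPM and both with upper-quartile scaling.

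**Figure D5:**
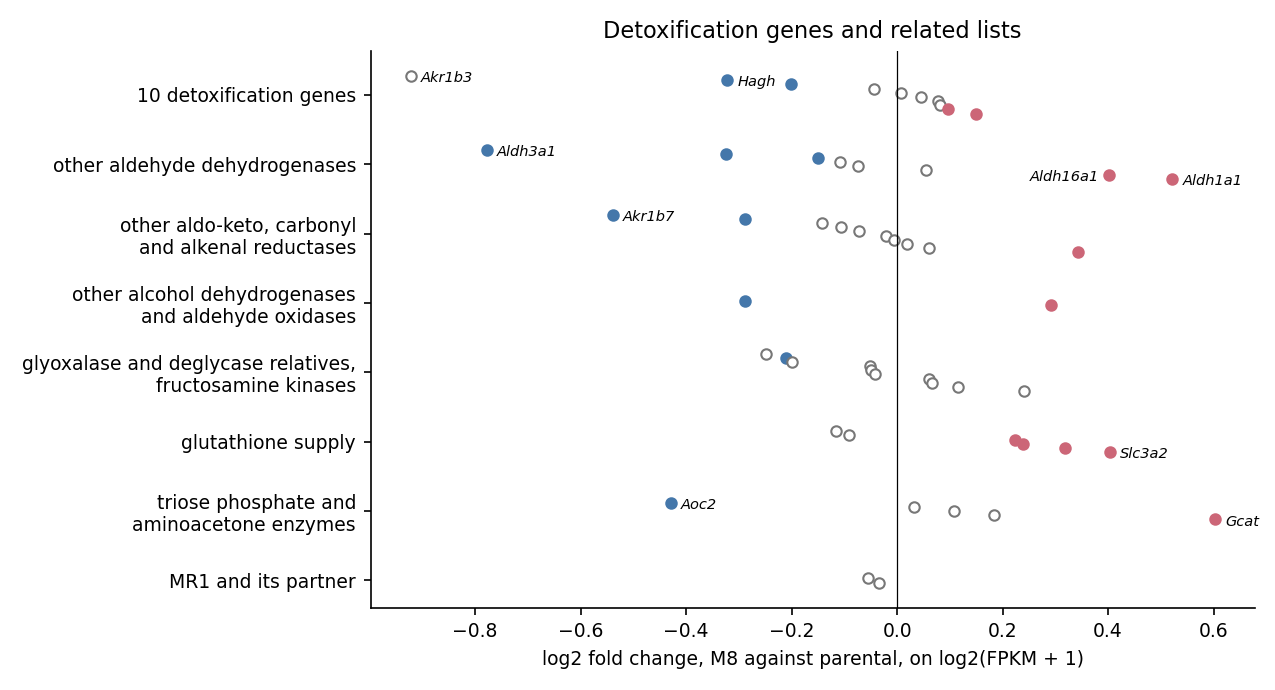
Log2 fold change (M8 against parental, on log2(FPKM + 1)) of each tested gene in the 10-gene set and in related lists, 1 point per gene, filled red or blue where higher or lower at an adjusted p below 0.1 and open otherwise. In the glutathione supply list 4 of 6 points are red, and the open points of Gclc and Gss lie below 0. The other lists also hold points on both sides of 0, except that of Mr1 and B2m, which are both open and below 0.

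The genes whose profile over the 6 libraries was nearest to that of Glo1 were Nbn, Ovca2 and Thoc5. Their root-mean-square distances were 0.0077, 0.0146 and 0.0162 on log2(FPKM + 1) centred on each gene's mean, where the median over 8546 genes was 0.0959.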

How the data were processed

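Total RNA of 3 parental and 3 M8 libraries was made into stranded mRNA libraries and sequenced as single reads. Per the labels, TopHat2 2.1.1, Bowtie2 2.2.8, SAMtools 0.1.18 and Cuffdiff 2.2.1 with mm10 were used. The authors deposited FPKM values; the gene annotation, strand setting and treatment of reads with several matches are not given in the sources used here.

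The 10597 genes whose FPKM averaged 1 or more entered a limma 3.58.1 fit in R 4.3.3 (lmFit, then eBayes with a trend) of log2(FPKM + 1), with a Benjamini-Hochberg adjusted p below 0.1, the threshold of the study's own count-based comparison. Fold changes are on that scale, which understates those of low genes. An exact permutation test with 3 against 3 cannot go below p = 0.1. The study describes the libraries of a group as biological replicates, and the labels do not say how they were cultured, so p-values measure the spread between these libraries. The fit was tested on simulated data.

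The members and lists were chosen with earlier results of these data known. Named were all members, up to 3 called genes with the largest change in each list, Mr1, B2m and 3 genes nearest in profile to Glo1; Gm6644, Gclm, Gclc, Gss, Haghl, Tpi1 and the genes with a single 0 were added after values were seen, and markers are given as ranges. Gatd1 is listed as Pddc1. Reads per library were estimated from FPKM steps, which 62.1% of 3211 low genes showed, with an assumed fragment of 200 bases; these are estimates, so no counting interval is given. Replicates differed by more than sampling noise and each counted once. Transcripts were compared with BLAST 2.17.0 and in windows of the study's read length, using GENCODE on GRCm38. Alternatives were pseudocounts of 0.1 and 0.5, no filter, a mean of at least 5 FPKM, median centring, TPM, upper-quartile and quantile scaling, a threshold of 0.05, no trend in eBayes, a block for the replicate number, and every library left out in turn.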

Additional observations from a re-analysis of the deposited data

How the results depend on the processing

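Hagh kept its direction and its call in all 17 alternatives. The number of members called higher in M8, 2 as reported, was 1 with a pseudocount of 0.1, TPM, eBayes without a trend or an adjusted p below 0.05, and 0 under quantile normalization or upper-quartile scaling. Leaving out 1 library gave 0 to 1. The number called lower, 2 as reported, was 1 with no filter on low values, 3 with quantile normalization or upper-quartile scaling, when Esd passed, and 1 to 3 with a library left out, 3 being the count without M8 replicate 1, when Akr1b3 passed.

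Signs turned for members that did not pass. Under quantile normalization and upper-quartile scaling the log2 fold changes were -0.015 and -0.010 for Glo1, -0.019 and -0.006 for Akr1a1, -0.047 and -0.041 for Aldh2, and -0.081 and -0.080 for Adh5. Adh5 was also -0.030 with TPM, -0.023 without parental replicate 2 and -0.031 without M8 replicate 2, and 0.031 without M8 replicate 3. The sum of Akr1b3 and Gm6644 gave 0.18, nearly all of it Gm6644, which is no change of sign of Akr1b3 itself. Akr1b3 was -1.97 with a pseudocount of 0.1. Over all genes, 2250 higher and 1745 lower became 1658 and 2209 with TPM and 1157 and 3236 with upper-quartile scaling, which moved the median of all genes by -0.08. The cause was not tested.

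The replicate numbers did not pair the libraries (correlations of deviations 0.1, -0.11 and -0.03 for equal numbers, and not every library was closest to its own number). With the replicate number as a block, 1 member was higher, the call of Aldh9a1 being lost (limma adjusted p = 0.150), and 2 were lower. Over the 7 related lists, marker lists left out, 197 of 238 recomputed counts stayed within 1.5 times the reported count. FPKM values carry no counts, so the counting error of single values is unknown.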
